A study of Rattus norvegicus with 19 samples.

Results

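Phosphodiesterases that break down cyclic nucleotides in the heart, 10 of the 17455 genes in the count files, were followed through 7 groups of rat left ventricle. They were chosen by gene symbol: Pde4a, Pde4b and Pde4d are selective for cAMP, Pde5a and Pde9a for cGMP, and Pde1a, Pde1c, Pde2a, Pde3a and Pde3b degrade both. All 10 were among the 12388 genes that passed the filter on low counts and were tested. Phosphodiesterases end cyclic nucleotide signals by hydrolysis, and in heart muscle they confine the cAMP made after β-adrenergic stimulation to the surroundings of its targets. The cGMP made by nitric oxide-sensitive guanylyl cyclase or by natriuretic peptide receptors also stimulates PDE2 and inhibits PDE3, so that the amount of one nucleotide bears on the breakdown of the other. The PDE1 enzymes need calcium and calmodulin, PDE5 is the target of sildenafil, and PDE9 has a high affinity for cGMP.

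The study asked how a 2-hit rat model of heart failure with preserved ejection fraction (HFpEF) and its treatment alter the heart. RNA of the left ventricle of Sprague-Dawley rats, 24 weeks old at the start and all labelled male, gave 19 libraries, each a biological replicate. The 3 control 5w and 3 control 9w hearts were taken at weeks 5 and 9 from rats on normal chow that drank no L-NAME. The 3 HFpEF hearts were taken at week 5, after L-NAME, an inhibitor of nitric oxide synthases upstream of cGMP, at 0.5 g/L in the drinking water and a high-fat diet with 60% of its kilocalories from lard. At week 9 came 4 groups of HFpEF rats that had been gavaged daily for 4 more weeks. The 3 untreated rats received phosphate-buffered saline, and the 2 EMPA rats received empagliflozin, an inhibitor of the glucose transporter SGLT2, at 0.35 g/kg/day. The 2 PFD rats received the antifibrotic pirfenidone at 0.3 g/kg/day, and the 3 EMPA + PFD rats received both at those doses. L-NAME and diet were always given together, so their parts cannot be told apart. The labels give 5 weeks of both, whereas the discussion of the study counts the gavage weeks into the induction. Whether they went on during the gavage is therefore not settled by the sources. Total counts ran from 7430539 to 13017754 per library, with a median of 9951011. Member counts ran from 9 for Pde1c in EMPA replicate 1 to 2391 for Pde2a in HFpEF replicate 2, so no member was at 0 in any library.

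Some libraries stood apart from their groups or their labels. Untreated replicate 2 lay farthest from its own group, with a root mean square difference of 0.841 in log2 CPM (read counts scaled to a common library total), followed by control 5w replicate 1 at 0.801 and HFpEF replicate 1 at 0.800. Myl4, an atrial myosin light chain, had 19668 counts in untreated replicate 2 against 41 and 46 in its group. In control 9w it had 2702, 24 and 13853 counts in replicates 1, 2 and 3. The Y-linked gene Eif2s3y had 0 counts in 7 libraries, namely HFpEF replicates 1 and 3, all 3 untreated and both PFD libraries, and 613 to 1321 counts in the other 12, against the male labels. The study kept equal numbers of both sexes in each group and states that male ventricles were sequenced. Eif2s3y therefore splits the untreated libraries from control 9w, EMPA and EMPA + PFD, where group and split cannot be told apart. RT1-CE16, a class I histocompatibility gene, had at most 3 counts in the 8 control 5w, HFpEF and EMPA libraries and 308 to 922 in all others. That split coincides with the comparisons of control 9w against control 5w and of EMPA against untreated, where it cannot be told apart from the group. The markers of ventricular muscle were present throughout: none of 11 cardiomyocyte markers was at 0 in any library. Their sum ran from 14218 CPM in HFpEF replicate 1 to 110579 CPM in EMPA + PFD replicate 2, and their most abundant gene, Myh6, ran from 824 to 32560.4 CPM. In whole tissue, fewer cells of a type and less RNA per cell cannot be told apart.

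**Figure D1:**
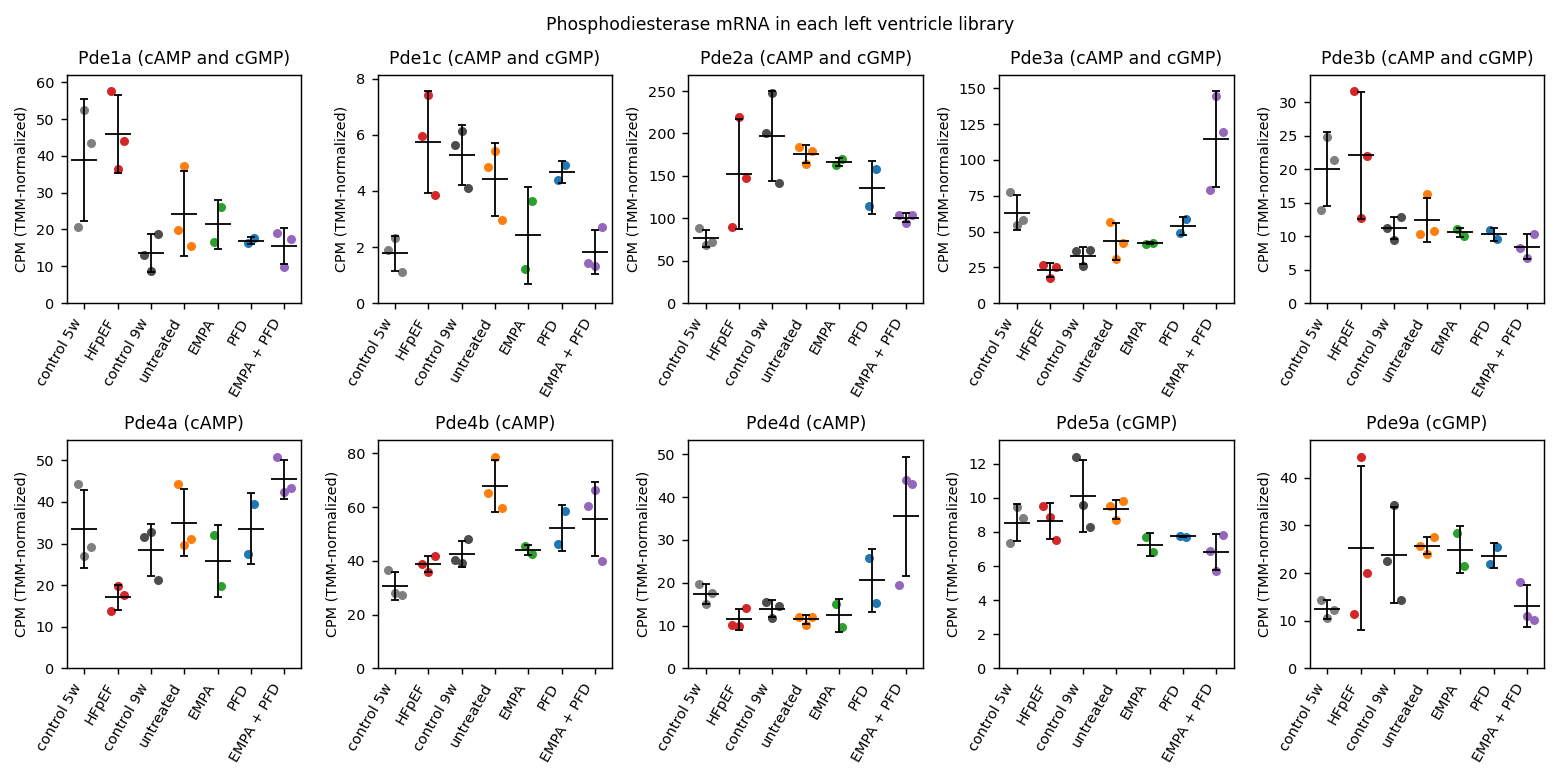
Each panel shows the TMM-normalized CPM of 1 phosphodiesterase (vertical axis) in every library of the 7 groups (horizontal axis), with points for libraries and black bars for the mean ± SD. Pde3a reaches 78.6 to 145 CPM in the 3 EMPA + PFD libraries, above all 16 other libraries, the nearest being control 5w replicate 1 at 77.3 CPM.

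The first comparison asked what the 5 weeks of L-NAME and diet did, and 4 members were called, 2 in each direction. Pde3a, the cGMP-inhibited enzyme of heart muscle, stood at 77.3, 54.4 and 57.9 CPM in the 3 control 5w libraries and at 26.3, 17.6 and 25.5 CPM in the 3 HFpEF libraries. Every HFpEF library was below every control library. The log2 fold change was -1.44 ± 0.25 (standard error), with an adjusted p of 0.00270 in edgeR's quasi-likelihood test, and the level was 2.72 times lower than in control. Pde4a, selective for cAMP, stood at 44.2, 27.1 and 29.3 CPM in control 5w and at 13.9, 19.7 and 17.7 CPM in HFpEF. The groups did not overlap, and control replicate 1 was the highest of the 6. Pde4a changed by -0.97 ± 0.25 in log2, adjusted p = 0.0169. Pde2a, the cGMP-stimulated enzyme, read 88.2, 69.1 and 71.7 CPM in control 5w and 89.7, 219 and 148 CPM in HFpEF. All HFpEF libraries were higher, but HFpEF replicate 1 exceeded control replicate 1 only slightly. The rise was 1.00 ± 0.26 in log2, adjusted p = 0.0169. Pde1c, a calcium and calmodulin-activated enzyme, had 1.88, 2.33 and 1.11 CPM in control 5w and 5.96, 7.43 and 3.84 CPM in HFpEF. It rose in all 3 HFpEF libraries above all controls, by 1.69 ± 0.42 in log2, adjusted p = 0.0142.

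So 4 of the 10 members were called between HFpEF and control 5w at an adjusted p under 0.05, against 20.0% of all 12388 genes. Of these 2 were higher (9.83% of all genes) and 2 lower (10.2%), and 2 also passed the study's 2-fold rule (8.69%). The members' median log2 fold change was 0.19, beside 0.02 over all genes. By substrate, 1 of 3 cAMP-selective, 0 of 2 cGMP-selective and 3 of 5 dual-substrate enzymes were called. The cGMP-selective count of 0 in edgeR stood beside 1 at an unadjusted p under 0.05 (35.8% of all genes), Pde9a, which had 14.4, 10.5 and 12.2 CPM in control 5w and 11.3, 44.4 and 20.1 CPM in HFpEF. HFpEF replicate 2 was high and replicate 1 lay among the controls; the log2 fold change was 1.03 ± 0.40, adjusted p = 0.0817. DESeq2 gave Pde9a an adjusted p of 0.0502 and limma voom 0.0131, the latter a call, as was Pde4b in voom (0.00589). Pde5a was nearly the same in both groups, at 8.55 ± 1.09 and 8.65 ± 1.04 CPM (mean ± SD, n = 3 each). The other uncalled members had log2 fold changes between -0.61 for Pde4d and 0.34 for Pde4b.

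Without HFpEF replicate 1, the Pde4a value was -0.84 with an adjusted p of 0.0606, and Pde9a became a call at 1.39 with 0.0220. Pde4a was also lost without control 5w replicate 1 (-0.71, adjusted p = 0.0746), and Pde1c without control 5w replicate 3 (1.44, adjusted p = 0.0556), where 2 members remained called. Pde2a was lost without control 5w replicate 2 (0.0526), control 5w replicate 3 (0.0545) or HFpEF replicate 2 (0.0805, with a log2 fold change of 0.64), these being adjusted p. Pde3a was called in each of the 19 fits that left out 1 library. HFpEF replicates 1 and 3 lack Eif2s3y, so with a term for its absence the HFpEF level rests on replicate 2. Pde3a then gave -1.84 (0.0127), Pde4a lost its call (-0.76, 0.190) and Pde9a gained one (1.85, 0.0129). Fitted on the 6 compared libraries alone, Pde1c (0.0593), Pde2a (0.116) and Pde4a (0.0759) were not called.

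Control hearts also differed between weeks 9 and 5, in all 5 dual-substrate enzymes, a comparison that shares the control 5w libraries with the one above. Pde2a stood at 200.1, 248 and 142 CPM in the 3 control 9w libraries against the 88.2, 69.1 and 71.7 CPM of control 5w. Each control 9w library was well above each control 5w library. Pde2a rose by 1.37 ± 0.26 in log2, adjusted p = 0.00167. Pde1c read 5.64, 6.15 and 4.09 CPM at week 9, above all 3 week 5 values, with a log2 fold change of 1.57 ± 0.42 and an adjusted p of 0.0109. Pde3a read 36.5, 26.1 and 36.8 CPM at week 9, below all 3 week 5 values, with -0.93 ± 0.25 in log2 and an adjusted p of 0.0117. Pde1a, the other calcium and calmodulin-activated enzyme, stood at 20.6, 52.5 and 43.5 CPM in control 5w and at 13.2, 8.73 and 18.8 CPM in control 9w. The groups came close, since control 5w replicate 1 was far below the other 2 of its group. Pde1a fell by 1.51 in log2 (standard error 0.40), adjusted p = 0.0100. Pde3b, the isoform of PDE3 known from adipose tissue and blood vessels, stood at 13.8, 24.8 and 21.4 CPM in control 5w and 11.3, 9.47 and 12.9 CPM in control 9w. It was lower in all 3 week 9 libraries, with a log2 fold change of -0.84 ± 0.30 and an adjusted p of 0.0427, close to the threshold.

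These 5 calls of 10 stood beside 34.5% of all genes, with 2 higher (17.3%), 3 lower (17.2%) and 3 past the 2-fold rule (14.7%). The members' median log2 fold change was 0.00 and that of all genes -0.04. None of the 3 cAMP-selective or 2 cGMP-selective enzymes was called by edgeR, with 1 of each at an unadjusted p under 0.05 (45.4% of all genes). These were Pde4b (0.47 ± 0.18, adjusted p = 0.0531), called by DESeq2 (0.0377) and voom (0.000167), and Pde9a (0.94 ± 0.40, adjusted p = 0.0832), called by voom (0.000313). Voom also called Pde5a (0.00298). Without control 9w replicate 2, Pde1a (-1.28, adjusted p = 0.0528) and Pde3a (-0.78, 0.0611) were lost and 2 calls remained. Pde1c was lost without control 5w replicate 3 (0.0510), where 3 calls remained. Pde3b was lost at adjusted p from 0.0512 to 0.158 without any 1 of 11 libraries: control 5w replicates 2 and 3, HFpEF replicate 3, control 9w replicates 1, 2 and 3, both EMPA, both PFD and EMPA + PFD replicate 1. Pde4b was gained without control 5w replicate 1, untreated replicate 2 or EMPA + PFD replicates 2 or 3 (adjusted p 0.0234 to 0.0459), and Pde9a without HFpEF replicates 1 or 2 or control 9w replicate 3 (0.0275 to 0.0406) or with the Eif2s3y term (0.0274).

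At week 9, untreated HFpEF hearts were compared with control 9w hearts, and edgeR called 0 of the 10 members, against 1.78% of all genes. At an unadjusted p under 0.05 there was 1 (18.2% of all genes), and DESeq2 and voom each called 1 (beside 824 and 5005 of all 12388 genes), all of them Pde4b. This cAMP-selective enzyme stood at 40.5, 39.1 and 48.2 CPM in control 9w and at 65.2, 78.8 and 59.7 CPM in the untreated libraries. The 3 untreated libraries were the higher ones, without overlap, and untreated replicate 2 was the highest of all 19. The log2 fold change was 0.67 ± 0.18, with an adjusted p of 0.0632 in edgeR, 0.0156 in DESeq2 and 0.00144 in voom. EdgeR called it as well once EMPA + PFD replicate 3 was left out (0.0365), and not without untreated replicate 2 (0.55, 0.0859) or with the Eif2s3y term (0.50, 0.596). The other 9 members overlapped between the groups, with log2 fold changes from -0.29 for Pde4d to 0.83 for Pde1a. Of all genes 23.0% did not overlap, and chance gives 10% for 3 against 3 libraries. The members' median was 0.14, beside 0.01 for all genes.

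The difference between HFpEF and its control was itself tested between weeks 9 and 5, since a call at one time and none at the other does not show a change. This difference of differences was called for 4 of 10 members (20.0% of all genes), 2 positive (9.76%) and 2 negative (10.2%), all 4 past the 2-fold rule (12.0%). Pde3a gave 1.83 ± 0.36 (adjusted p = 0.00473), with -1.44 at week 5 and 0.38 at week 9. Pde4a gave 1.27 ± 0.35 (0.0220), from -0.97 to 0.30. Pde1c gave -1.94 ± 0.58 (0.0293), from 1.69 to -0.25. Pde2a gave -1.16 ± 0.36 (0.0367), from 1.00 to -0.16. The 4 enzymes moved at week 5 had log2 fold changes between -0.25 and 0.38 at week 9. With the Eif2s3y term these became 0.34 for Pde1c, 0.73 for Pde2a, -0.18 for Pde3a and 0.62 for Pde4a, none called, and 3 of them changed sign. The control level of 3 of the 4, Pde1c, Pde2a and Pde3a, had itself shifted toward the HFpEF level. The members' median was 0.16, beside -0.02 for all genes. Of the 19 fits that left out 1 library, Pde3a was called in each, and the calls were lost in 2 for Pde4a, in 6 for Pde1c and in 8 for Pde2a. With the Eif2s3y term, Pde1c (0.0651) and Pde2a (0.0933) were lost, and Pde2a also with the replicate block (0.0554) or only the compared libraries (0.0906).

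**Figure D2:**
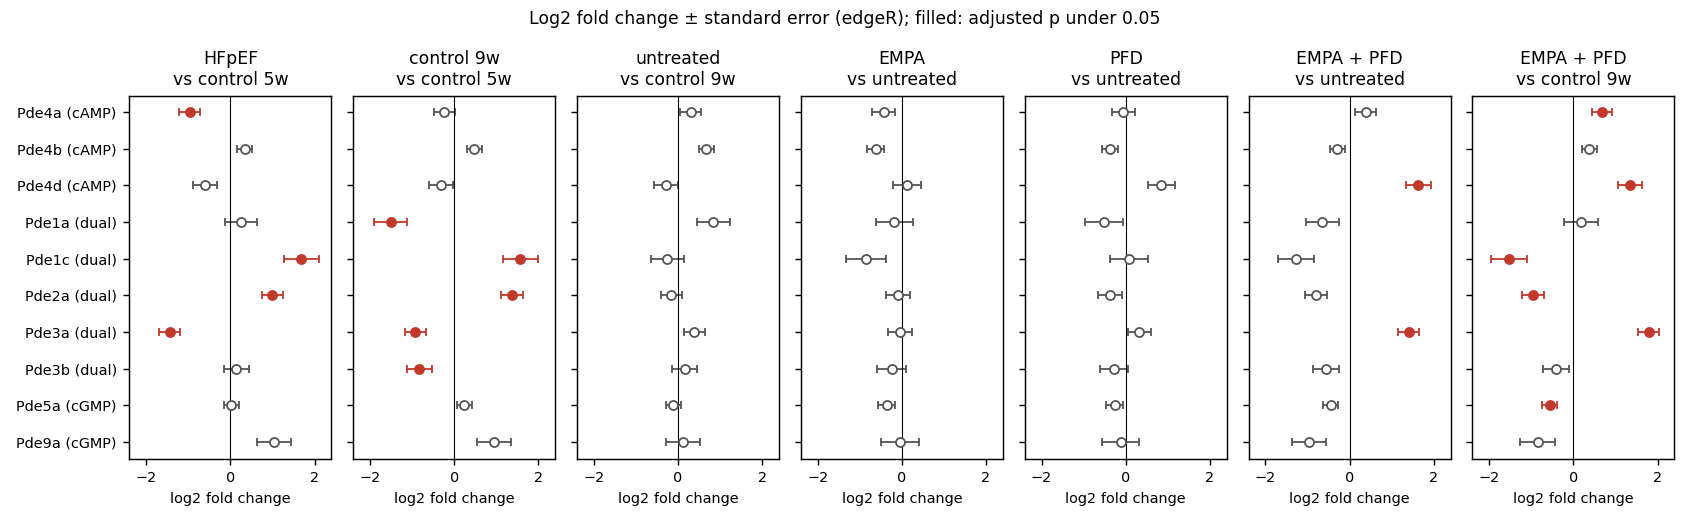
Log2 fold changes (horizontal axis) with their standard errors are shown for the 10 phosphodiesterases, grouped by substrate (vertical axis), in 7 comparisons, filled and red where the adjusted p was under 0.05. Pde3a sits at -1.44 for HFpEF against control 5w and at 1.41 for EMPA + PFD against untreated; the panels that share a group are not independent.

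EMPA and PFD were each compared with the untreated group, which both comparisons share. EdgeR called 0 of 10 members for EMPA (0.0404% of all genes) and 0 of 10 for PFD (0.00807%), with 1 member each at an unadjusted p under 0.05 (8.63% and 5.21% of all genes) and 0 in each by DESeq2 and by voom. For EMPA the 1 member was Pde4b, at 45.4 and 42.8 CPM in the 2 EMPA libraries against 65.2, 78.8 and 59.7 CPM untreated. Both EMPA libraries lay below all 3 untreated ones, near the control 9w level. Pde4b gave -0.62 ± 0.20 in log2, adjusted p = 0.360. For PFD it was Pde4d, selective for cAMP and part of the complexes of the ryanodine receptor, at 25.7 and 15.3 CPM against 12.0, 10.1 and 12.1 CPM untreated. Both PFD libraries were higher, 1 of them by far, with 0.85 ± 0.32 and an adjusted p of 0.786. The other members ran from -0.86 (Pde1c) to 0.11 (Pde4d) for EMPA, and from -0.52 (Pde1a) to 0.32 (Pde3a) for PFD. The members' medians were -0.21 and -0.19, beside 0.01 and -0.02 over all genes. EMPA and PFD had 2 libraries each. Without overlap with untreated were also Pde5a for EMPA and Pde2a, Pde4b and Pde5a for PFD, all lower. The share of all genes without overlap was not counted in these 2 comparisons.

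Between the EMPA + PFD group and the same untreated group, Pde3a and Pde4d were called higher in EMPA + PFD. Pde3a stood at 57.0, 31.0 and 41.7 CPM in the untreated libraries and at 78.6, 145 and 119.7 CPM in the EMPA + PFD libraries. All 3 EMPA + PFD libraries were above every other library of the study. Replicate 1, the lowest of them, was only slightly above control 5w replicate 1 at 77.3 CPM. Pde3a rose by 1.41 ± 0.25 in log2, a mean 2.65-fold, with an adjusted p of 0.00854. Pde4d stood at 12.0, 10.1 and 12.1 CPM untreated and at 19.4, 44.0 and 43.0 CPM after the combination. The groups did not overlap, but EMPA + PFD replicate 1 lay much closer to the untreated libraries than replicates 2 and 3 did, and below PFD replicate 1. Pde4d rose by 1.64 ± 0.29 in log2, a mean 3.11-fold, with an adjusted p of 0.00834. Hence 2 of 10 members were called (12.1% of all genes), 2 higher (6.60%), 0 lower (5.52%) and 2 past the 2-fold rule (3.82%). The members' median log2 fold change was -0.51, beside -0.03 over all genes, since 7 of 10 had negative values.

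Of those 7, edgeR called 0 at its adjusted p, 4 had an unadjusted p under 0.05, and these 4 also did not overlap between the groups. The 7 were picked by sign, so their counts have no matching share over all genes. Of all 10 members, 6 had an unadjusted p under 0.05, beside 32.7% of all genes. Without overlap were 37.4% of all genes, and chance gives 10% for 3 against 3. Pde2a read 104, 94.7 and 104 CPM after the combination against 185, 164 and 179.6 CPM untreated. The difference was -0.80 ± 0.26 in log2, adjusted p = 0.0532, just outside the threshold. Pde1c read 1.42, 1.32 and 2.72 against 4.85, 5.44 and 2.95 CPM, with -1.27 ± 0.43 and an adjusted p of 0.0619. The cGMP-selective enzymes were lower in all 3 EMPA + PFD libraries too. Pde5a read 6.86, 5.74 and 7.84 against 9.50, 8.69 and 9.80 CPM, with -0.45 ± 0.18 and an adjusted p of 0.104. Pde9a read 18.2, 11.0 and 10.1 against 25.6, 24.0 and 27.6 CPM, with -0.97 ± 0.40 and an adjusted p of 0.113. DESeq2 called Pde1c (0.0297) and Pde2a (0.0277) beside Pde3a and Pde4d, and voom called Pde2a (0.00180) and Pde9a (0.00637). Within edgeR, Pde2a was called without HFpEF replicate 1 (0.0227), HFpEF replicate 2 (0.0268) or control 9w replicate 3 (0.0472). Pde1c was called without EMPA replicate 1 (0.0496) and Pde9a without HFpEF replicate 2 (0.0488), where 4 members passed in all.

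Pde3a and Pde4d were called in each of the 19 fits that left out 1 library. Without untreated replicate 2 the values were 1.21 for Pde3a and 1.55 for Pde4d, both with an adjusted p of 0.0458. Fitted on the 6 libraries of these 2 groups alone, neither was called (0.0898 and 0.0873). Eif2s3y was at 0 in all 3 untreated libraries and present in all 3 EMPA + PFD libraries. With a term for its absence, which only the HFpEF group can estimate, Pde3a gave 1.96 (0.0392), Pde4d 1.92 (0.0641), Pde2a -1.69 (0.0337) and Pde9a -2.47 (0.0335).

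Whether the combination's log2 fold change differed from the sum of both single ones was tested as an EMPA by PFD interaction. EdgeR called 0 of 10 members (0.00807% of all genes), with 3 at an unadjusted p under 0.05 (9.13%) and 0 by DESeq2 or voom. The 3 were Pde3a (1.13 ± 0.40, adjusted p = 0.451), Pde4a (0.87 ± 0.40, 0.543) and Pde4b (0.71 ± 0.28, 0.493). Pde4d, with 0.85 for PFD alone and 1.64 for the combination, gave 0.68 ± 0.46 (0.694). The members' median was 0.12, beside -0.01 over all genes. A rise greater than additive in log2 was therefore not called for any member, with 2 libraries each of EMPA and PFD.

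Against the control 9w hearts of the same week, the EMPA + PFD hearts differed in 6 of 10 members (33.8% of all genes). Of these 3 were higher (17.1%) and 3 lower (16.6%), and 3 passed the 2-fold rule (12.1%). This comparison shares a group with the one before it. Pde3a (36.5, 26.1 and 36.8 CPM in control 9w) was higher by 1.79 ± 0.26, adjusted p = 0.000585. Pde4d (15.5, 11.7 and 14.7 CPM) was higher by 1.35 ± 0.29, adjusted p = 0.00364. Pde4a, at 31.5, 32.7 and 21.1 CPM in control 9w and 50.8, 42.3 and 43.3 CPM after the combination, was higher by 0.68 ± 0.25, adjusted p = 0.0476. Lower were Pde1c, at -1.52 ± 0.43 (0.0143), and Pde2a, at -0.96 ± 0.26 (0.0113). Pde5a, at 12.4, 9.59 and 8.28 CPM in control 9w, was lower as well, at -0.56 ± 0.18 (0.0278), the only call of a cGMP-selective enzyme by edgeR in any of the 9 comparisons under the model of 7 group means with all 19 libraries. Of all 10 members, these 6 and no others were without overlap between the groups, beside 51.2% of all genes and 10% by chance. The members' median was -0.11, beside -0.08 over all genes.

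The calls of Pde3a and Pde4d were made in each of the 19 fits that left out 1 library, and the others were not. Pde1c was lost without control 9w replicate 2 (0.0503), EMPA + PFD replicate 1 (0.0523) or replicate 2 (0.0689), and Pde2a without control 9w replicate 2 (0.0597) or EMPA + PFD replicate 2 (0.0510). Pde5a was lost without control 9w replicate 1 (0.146) or 2 (0.0536) or EMPA + PFD replicate 1 (0.0613) or 2 (0.124). Pde4a was lost without control 5w replicate 3, HFpEF replicate 3, untreated replicate 3 or any of the 6 compared libraries, at adjusted p from 0.0510 to 0.168. Without control 9w replicate 2 or EMPA + PFD replicate 2, 2 members were called, and without EMPA + PFD replicate 1, 3 were. Pde4b was gained without EMPA + PFD replicate 3 (0.59, 0.0191; with all libraries 0.38) and Pde9a without HFpEF replicate 2 (0.0439) or with the Eif2s3y term (0.0438). On the 6 compared libraries alone, Pde5a was not called (0.0916).

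Across all 7 groups, the cAMP-selective enzymes had unlike orders. Pde4d was lowest in untreated hearts (11.4 ± 1.11 CPM, mean ± SD, n = 3), with HFpEF, EMPA, control 9w, control 5w, PFD and EMPA + PFD (35.5 ± 13.9) following. From untreated to control 9w the neighbours did not differ beyond their spread, and PFD and EMPA + PFD, though apart by more than the larger SD, overlapped. Pde4a was lowest in HFpEF (17.1 ± 2.98) and highest after the combination (45.5 ± 4.68), with EMPA, control 9w, control 5w, PFD and untreated between them. Those 5 did not differ from neighbour to neighbour beyond the larger SD, and the steps at either end did, the upper one with overlap. Pde4b was lowest in control 5w (30.7 ± 5.14), then came HFpEF, control 9w, EMPA, PFD and EMPA + PFD, and untreated hearts were highest (67.9 ± 9.79). Its neighbours from HFpEF upward did not differ beyond the larger SD.

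Of the cGMP-selective enzymes, Pde5a had the smallest ratio of highest to lowest library of all 10 members (2.16), from 5.74 to 12.4 CPM. Its group means ran from EMPA + PFD (6.81 ± 1.05) through EMPA, PFD, control 5w, HFpEF and untreated to control 9w (10.1 ± 2.11), with no pair of neighbours differing beyond the larger SD. Pde9a was lowest in control 5w (12.4 ± 1.98) and EMPA + PFD (13.1 ± 4.44), which overlapped. The other 5 groups, PFD, control 9w, EMPA, HFpEF and untreated, lay between 23.7 and 25.7 CPM and did not differ beyond their spread, which in HFpEF was 17.1 CPM.

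Among the dual-substrate enzymes, Pde3a had the largest ratio of highest to lowest group mean (4.94), from 23.2 ± 4.83 CPM in HFpEF through control 9w, EMPA, untreated, PFD and control 5w to 114 ± 33.4 CPM in EMPA + PFD. From EMPA through control 5w the neighbours did not differ beyond the larger SD, whereas the steps below EMPA and the step from control 5w to EMPA + PFD were larger than it. Pde2a ran from control 5w (76.3 ± 10.4) and EMPA + PFD (101 ± 5.34), set off from each other and from PFD without overlap, through PFD, HFpEF, EMPA and untreated to control 9w (197 ± 52.9), the last 5 within their spread. Pde1c was low in control 5w (1.78 ± 0.614), EMPA + PFD (1.82 ± 0.781) and EMPA (2.42 ± 1.73, n = 2), and after a step with overlap, untreated, PFD, control 9w and HFpEF (5.74 ± 1.80) followed within their spread. Pde1a ran from control 9w (13.6 ± 5.07) through EMPA + PFD, PFD, EMPA, untreated and control 5w to HFpEF (46.0 ± 10.7), with every pair of neighbours overlapping. Pde3b ran from EMPA + PFD (8.44 ± 1.83) through PFD, EMPA, control 9w and untreated to control 5w and HFpEF (22.1 ± 9.46), and the step from untreated to control 5w was the only one beyond the larger SD.

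The members did not move as 1 family. Over the 45 pairs of members, the correlation of log2 CPM across the 19 libraries (points that share groups, depth and tissue) was above 0.5 for 7 pairs. The closest pair was Pde2a and Pde9a (Pearson r = 0.88, Spearman rho = 0.86), at r = 0.86 without the 2 libraries farthest from the median and at 0.90 after group means were removed. Pde1a and Pde3b followed (r = 0.87, rho = 0.73, 0.81 without 2 libraries, 0.77 within groups). Pde3a and Pde4d gave r = 0.83 (rho = 0.75, 0.65 and 0.58). For Pde3a and Pde4a, r = 0.74 (rho = 0.69) came down to 0.11 within groups, so that relation lay between groups. Pde1c and Pde3a ran opposite (r = -0.67, rho = -0.68), at -0.14 within groups. Within groups, Pde2a and Pde3b ran most opposite, at r = -0.79.

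Because whole ventricle holds many cell types, each member was set beside the summed CPM of 11 lists of cell type markers, over the same 19 libraries, again with shared groups, depth and tissue. The closest list is that of highest positive r among the 11, in these same libraries. Its r is thus high by selection, and a smaller spread per CPM of that list partly follows from the choice. For 7 members the closest list had r above 0.7, and those lists moved between groups as well. Their part in the members' differences was not tested. Pde2a ran with the 9 endothelial markers (r = 0.94, rho = 0.90, r = 0.91 without the 2 farthest libraries and 0.83 within groups). These summed to 2238, 1775 and 2056 CPM in control 5w, 2007, 4244 and 3501 in HFpEF, 4672, 4895 and 4041 in control 9w, 3578, 4013 and 3916 untreated, 3664 and 2786 in EMPA, 3015 and 3191 in PFD and 2579.5, 2327 and 2411 in EMPA + PFD. Control 5w was lowest and control 9w highest, the order that Pde2a itself followed at both ends. Their most abundant gene was Vwf, which carries von Willebrand factor, and no endothelial marker was at 0 in any library. Of the 9, 4 were called higher in HFpEF than in control 5w (9.83% of all genes), 8 higher in control 9w than in control 5w (17.3%), 1 lower in EMPA + PFD than untreated (5.52%) and 7 lower than in control 9w (16.6%). The median log2 fold changes were 0.71, 1.22, -0.73 and -1.06 in these comparisons. In the difference of the HFpEF effect between weeks 9 and 5, 3 of 9 were called lower (10.2% of all genes), with 0 of 9 positive and a median of -1.02, the direction of Pde2a.

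Per 1000 CPM of endothelial markers, Pde2a had 39.4, 38.9 and 34.9 CPM in control 5w, 44.7, 51.7 and 42.2 in HFpEF, 42.8, 50.6 and 35.2 in control 9w, 51.6, 40.9 and 45.8 untreated and 40.4, 40.7 and 42.9 in EMPA + PFD. On that scale HFpEF was still above control 5w without overlap, whereas control 9w overlapped control 5w, and control 9w, untreated and EMPA + PFD overlapped. The coefficient of variation over the 19 libraries was 36.0% for Pde2a CPM and 14.8% per endothelial marker CPM. Pde9a also ran closest with the endothelial list (r = 0.82, rho = 0.78, r = 0.76 without the 2 farthest libraries and 0.85 within groups), and its coefficient of variation was 43.2% and 24.5% on these scales. Pde1c was closest to that list too (r = 0.55, rho = 0.57, r = 0.73 without the 2 farthest libraries), but at -0.16 within groups, and its coefficients of variation were 50.9% and 49.4%.

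Pde3b ran with the leukocyte markers (r = 0.97, rho = 0.90, r = 0.96 without the 2 farthest libraries and 0.97 within groups), of which 8 of 9 were in the files and none was at 0. They summed to 369.8, 661 and 586 CPM in control 5w, 1089, 355 and 699 in HFpEF, 246, 199 and 258 in control 9w, 273, 511 and 268 untreated, 291 and 185 in EMPA, 264 and 229.9 in PFD and 194, 158 and 270.3 in EMPA + PFD, with Csf1r, the receptor for macrophage colony-stimulating factor, as the most abundant. HFpEF replicate 1 had the highest sum and also the highest Pde3b level. Per 1000 CPM of these markers, Pde3b was at 37.5, 37.4 and 36.6 CPM in control 5w and at 45.9, 47.7 and 49.9 CPM in control 9w. On that scale control 9w was the higher group, the reverse of the order in CPM. Of the 8 leukocyte markers, 4 were called lower in control 9w than in control 5w (17.2% of all genes), with a median log2 fold change of -1.57. The coefficient of variation was 46.6% for Pde3b CPM and 16.0% per leukocyte marker CPM.

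Pde1a ran with the 8 fibroblast markers (r = 0.90, rho = 0.90, r = 0.95 without the 2 farthest libraries and 0.88 within groups), none of them at 0. They summed to 4505, 44963 and 36468 CPM in control 5w, 17219, 9629 and 12721 in HFpEF, 4324, 3073 and 4606 in control 9w, 3922, 8458 and 3756 untreated, 3724 and 7682 in EMPA, 4454 and 3864 in PFD and 4671, 2095 and 3979 in EMPA + PFD, with the collagen gene Col3a1 as the most abundant. Control 5w replicate 1 had a far lower sum than the other control 5w libraries, and it was also their lowest for Pde1a. In control 9w against control 5w, where Pde1a fell, 6 of 8 fibroblast markers were called lower (17.2% of all genes), with a median of -2.77. Per 1000 CPM of fibroblast markers, Pde1a read 4.58, 1.17 and 1.19 CPM in control 5w and 3.05, 2.84 and 4.09 CPM in control 9w. These overlapped, because control 5w replicate 1 was then the highest of the 6. The coefficient of variation was 56.8% for Pde1a CPM and 28.9% per fibroblast marker CPM.

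The 3 members nearest to the 11 cardiomyocyte markers were Pde3a (r = 0.81, rho = 0.85, r = 0.80 without the 2 farthest libraries and 0.51 within groups), Pde4a (r = 0.81, rho = 0.83, r = 0.71 without the 2 farthest libraries and 0.54 within groups) and Pde4d (r = 0.71, rho = 0.71, r = 0.65 without the 2 farthest libraries and 0.40 within groups). Those markers summed to 82352, 41132 and 46003 CPM in control 5w, 14218, 23733 and 38345 in HFpEF, 41385, 47592 and 42998 in control 9w, 70623, 21337 and 63136 untreated, 53809.9 and 43923 in EMPA, 70302 and 75864 in PFD and 82581, 110579 and 85789 in EMPA + PFD. The sums were low in HFpEF and in untreated replicate 2 and highest in EMPA + PFD, as Pde3a was low in HFpEF and highest in EMPA + PFD. Of the 11, 2 were called lower in HFpEF than in control 5w (median -1.24, 10.2% of all genes), 1 higher in EMPA + PFD than untreated (median 0.85, 6.60%) and 4 higher in EMPA + PFD than in control 9w (median 1.31, 17.1%). For control 9w against control 5w, where Pde3a fell, edgeR called 0 of 11 (34.5% of all genes), with 0 at an unadjusted p under 0.05 (45.4%; median -0.49). In the difference of the HFpEF effect between weeks, 2 of 11 were called higher (9.76% of all genes), with 11 of 11 positive and a median of 1.62, the direction of Pde3a and Pde4a. Per 1000 CPM of cardiomyocyte markers, Pde3a read 0.938, 1.32 and 1.26 CPM in control 5w, 1.85, 0.742 and 0.666 in HFpEF, 0.883, 0.548 and 0.856 in control 9w, 0.807, 1.45 and 0.661 untreated and 0.952, 1.31 and 1.40 in EMPA + PFD. On this scale HFpEF overlapped control 5w and untreated overlapped EMPA + PFD, with HFpEF replicate 1 and untreated replicate 2 at the top of their groups. Control 9w remained below control 5w and below EMPA + PFD without overlap. Pde4a per 1000 CPM of these markers read 0.537, 0.658 and 0.637 in control 5w and 0.974, 0.831 and 0.461 in HFpEF. These overlapped, and the HFpEF mean (0.755) was above that of control 5w (0.610), the reverse of the order in CPM. Its values of 0.760, 0.687 and 0.492 in control 9w and 0.616, 0.383 and 0.504 in EMPA + PFD overlapped too, again with the means in reverse order. Pde4d read 0.170, 0.476 and 0.192 untreated, 0.373, 0.245 and 0.341 in control 9w and 0.235, 0.398 and 0.502 in EMPA + PFD, which overlapped both others. In CPM and per marker CPM, the coefficient of variation was 60.4% and 34.6% for Pde3a, 33.1% and 37.6% for Pde4a, and 56.5% and 38.8% for Pde4d.

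**Figure D3:**
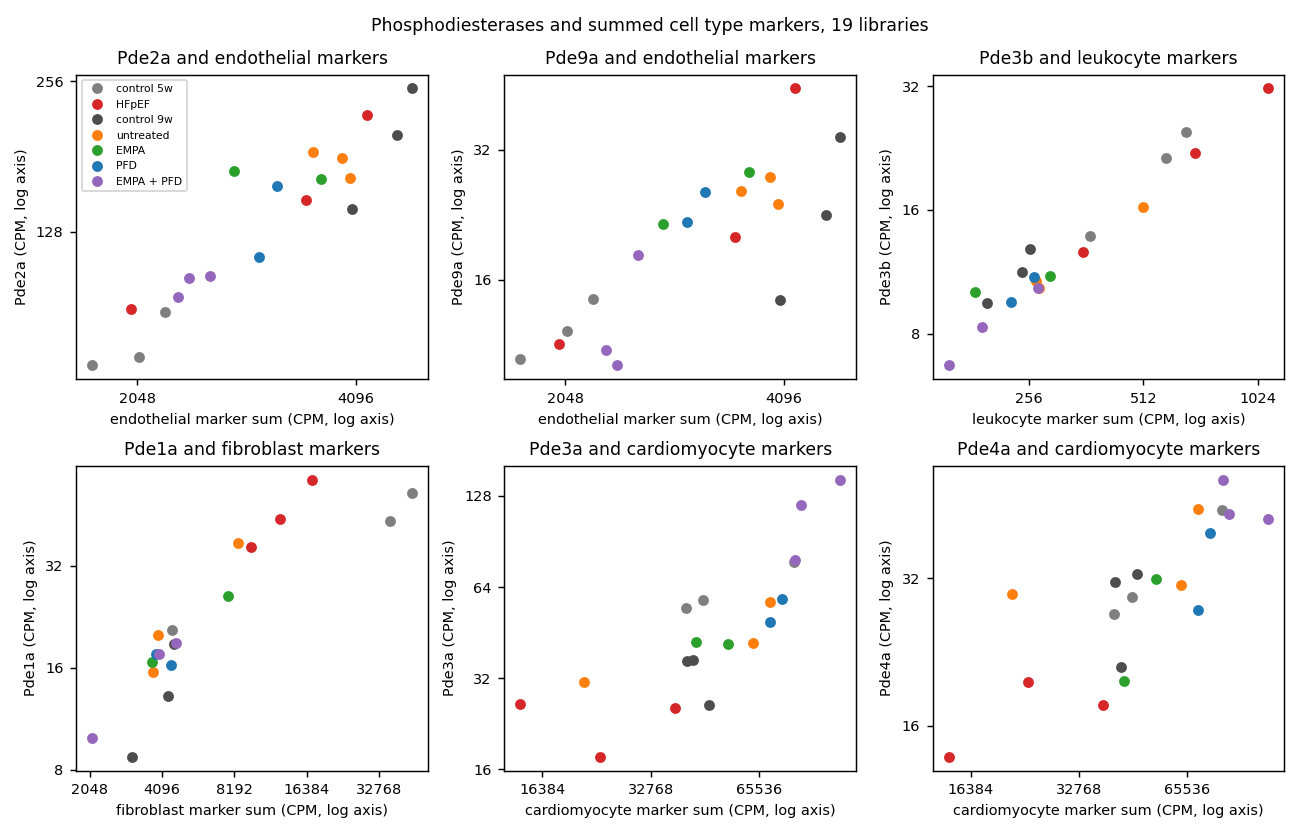
CPM of 6 phosphodiesterases (vertical axes) is plotted against the summed CPM of the closest list of cell type markers (horizontal axes), 1 point per library, colored by group. Pde3b and the leukocyte markers lie closest to a line (r = 0.97 in log2), and Pde3a and the cardiomyocyte markers are looser (r = 0.81).

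No list had an r above 0.5 with Pde4b or Pde5a. For Pde4b the highest r was with the adipocyte list (r = 0.49, rho = 0.22), which came down to 0.09 without the 2 farthest libraries, so it rested on those. The blood list (r = -0.65, rho = -0.61, 0.21 within groups) and the fibroblast list (r = -0.63, rho = -0.50, -0.32 within groups) ran opposite to Pde4b. For Pde5a the highest was the skeletal muscle list (r = 0.48, rho = 0.33, 0.26 without the 2 farthest), and the cardiomyocyte list ran opposite (r = -0.48, rho = -0.46, -0.29 within groups). The adipocyte list had Lipe, a lipase gene, as its most abundant, with Adipoq, Plin1, Lep, Cidec and Retn at 0 in some libraries. Lipe made up nearly all of the sum, at 64.1 to 411 CPM beside sums of 64.2 to 412 CPM. The list therefore followed this 1 gene. Skeletal muscle markers summed to at most 12.6 CPM, with Myh1 and Myh4 at 0 in some.

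The genes most like each member, among 11737 with a mean of at least 1 CPM over the same 19 libraries, differed from member to member. Where 2 values follow a gene, they are r over all libraries and r within groups. Among the cAMP-selective enzymes, Pde4b ran with Nr4a1 (r = 0.92, rho = 0.89, r = 0.88 without the 2 farthest, 0.77 within groups), Btg2 (0.87, 0.39) and Ppp1r15a (0.85, 0.48). Pde4a had Zkscan3 (r = 0.93, rho = 0.89, r = 0.89 without the 2 farthest, 0.83 within groups), Cyb5b (0.93, 0.84) and Zbtb18 (0.93, 0.88) beside it. Pde4d had Ufl1 (r = 0.95, rho = 0.89, r = 0.87 without the 2 farthest, 0.89 within groups), Tiparp (0.92, 0.82) and Fbxo30 (0.92, 0.86). For the cGMP-selective enzymes, Pde9a had Gimap8 (r = 0.96, rho = 0.96, r = 0.97 without the 2 farthest, 0.94 within groups), Hspa12b (0.96, 0.98) and Lap3 (0.96, 0.94), the first of them a GTPase of the immunity-associated family. Pde5a had no close partner, the nearest being Erap1 (r = 0.80, rho = 0.77, r = 0.69 without the 2 farthest, 0.53 within groups), Wdfy3 (0.79, 0.57) and Tut4 (0.77, 0.61). Of the dual-substrate enzymes, Pde3b ran with Ctss (r = 0.97, rho = 0.95, r = 0.94 without the 2 farthest, 0.95 within groups), Clec4a1 (0.97, 0.96) and C1qa (0.96, 0.96). Pde1a ran with Lrp1 (r = 0.97, rho = 0.94, r = 0.96 without the 2 farthest, 0.92 within groups), Fbln1 (0.97, 0.98) and Mxra8 (0.96, 0.97). Pde2a ran with Shank3 (r = 0.96, rho = 0.94, r = 0.95 without the 2 farthest, 0.94 within groups), Ushbp1 (0.95, 0.94) and Lgals9 (0.95, 0.87). Pde3a ran with Ppm1l (r = 0.97, rho = 0.96, r = 0.96 without the 2 farthest, 0.90 within groups), Lrba (0.97, 0.91) and Tom1l2 (0.97, 0.79), and Pde1c with Ggt5 (r = 0.87, rho = 0.88, r = 0.85 without the 2 farthest, 0.71 within groups), Lmo1 (0.82, 0.61) and Lrat (0.81, 0.39). A partner was the gene with the highest of 11737 correlations, so its r is high by selection.

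The enzymes that the phosphodiesterases work against, the proteins that read cAMP and cGMP, and 13 other phosphodiesterases were taken as 7 lists. These held 97 gene symbols, 93 of them in the files and 82 tested. The lists for the formation of cAMP and cGMP hold receptors and G proteins beside the cyclases. Among these are Gnai3, of an inhibitory G protein, and Npr3, a receptor that clears natriuretic peptides. Counts of higher and lower genes in these lists are therefore no measure of more or less synthesis. Between HFpEF and control 5w, 28 of the 82 were called, 8 higher and 20 lower (20.0%, 9.83% and 10.2% of all genes), with a median log2 fold change of -0.17. The genes named here with their log2 fold change and adjusted p are those, among the 4 called genes of largest change in their list, whose call held in each of the 19 fits that left out 1 library. The readers of cAMP gave 1 higher and 8 lower of 18, with the pacemaker channel gene Hcn4 (-4.11, 0.000280), the inhibitor of protein kinase A (PKA) Pkia (-2.61, 0.00195) and its regulatory subunit Prkar2a (-1.42, 0.00127). Anchors of PKA and of phosphodiesterases gave 3 higher and 4 lower of 14, with Akap6 (-2.23, 0.00245), Akap1 (-1.37, 0.00544) and Pde4dip (-1.50, 0.00908). The calcium-handling targets of PKA gave 0 higher and 4 lower of 9, with Rrad (-1.91, 0.00722). The formation of cAMP gave 2 higher and 3 lower of 15, with the cyclases Adcy5 (-1.35, 0.00592) and Adcy4 (0.85, 0.00676). That of cGMP gave 1 higher and 1 lower of 12, and its effectors 1 higher and 0 lower of 6, with Mrvi1 (1.25, 0.00330). EdgeR called 0 of the 8 other phosphodiesterases, with 2 at an unadjusted p under 0.05 (35.8% of all genes). In this comparison the median was -1.24 for cardiomyocyte and 0.71 for endothelial markers. Among other lists, atrial and conduction markers had -1.58 (1 of 6 called, lower) and adipocyte markers 2.92 (1 of 3 called, higher). Mesothelium markers had 3.16 (2 of 2 called, higher). The part of cell type markers in the pathway lists was not tested here or in the comparisons below. The total of called genes was 17 without control 5w replicate 1 and 18 without HFpEF replicate 2. Under alternatives other than leaving out 1 library, Rrad, Pde4dip, Mrvi1, Adcy5, Akap1 and Adcy4 could lose their calls. Their highest adjusted p ran from 0.0537 for Adcy4 to 0.0990 for Pde4dip.

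In control 9w against control 5w, 37 of the 82 were called, 19 higher and 18 lower (median -0.06), beside 34.5%, 17.3% and 17.2% of all genes. Endothelial markers had a median of 1.22 and cardiomyocyte markers of -0.49. Among other lists, fibroblast markers had -2.77 (6 of 8 called, lower) and leukocyte markers -1.57 (4 of 8 called, lower). Atrial and conduction markers had 3.32, with 2 of 6 called higher and 1 lower. The formation of cGMP gave 5 higher and 0 lower of 12, with the endothelial nitric oxide synthase Nos3 (1.51, 0.00186) and the natriuretic peptide receptor Npr1 (1.40, 0.000705). The formation of cAMP gave 5 higher and 5 lower of 15, with the β1-adrenergic receptor Adrb1 (-1.78, 0.00888) and Adcy4 (1.48, 0.000133). Readers of cAMP gave 2 higher and 7 lower of 18, with Hcn4 (-5.21, 4.66e-05), Pkia (-2.47, 0.000967), Prkar2a (-1.41, 0.000535) and Rapgef3 (1.68, 0.000636), an exchange factor activated by cAMP. Effectors of cGMP gave 2 higher and 1 lower of 6, with Mrvi1 (1.03, 0.00386), anchors 2 higher and 3 lower of 14, with Akap6 (-1.54, 0.00701), Akap1 (-1.41, 0.00189), Akap12 (0.95, 0.0110) and Akap7 (-0.86, 0.00131), and calcium targets 0 higher and 1 lower of 9. The other phosphodiesterases gave 3 higher and 1 lower of 8, with the cAMP-selective Pde8a (0.58, 0.00544). In untreated against control 9w, 3 of 82 were called (1.78% of all genes), and 20 had an unadjusted p under 0.05 (18.2%). The 3 were Adcy4, Adcy9 and Gnai3, of an inhibitory G protein, all in the list for the formation of cAMP. No call of the 3 held in all 19 fits. The total was 0 without control 9w replicates 1 or 2 or untreated replicates 1 or 3, and 13 without untreated replicate 2. It was 1 without control 5w replicate 2, HFpEF replicate 3, any of the EMPA and PFD libraries, or EMPA + PFD replicates 2 or 3. The difference of this effect between weeks 9 and 5 was called for 29 of 82, 20 positive and 9 negative (20.0%, 9.76% and 10.2% of all genes), and for 19 without untreated replicate 1.

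EdgeR called 0 of the 82 for EMPA (0.0404% of all genes) and 0 for PFD (0.00807%) against untreated, with 6 and 3 at an unadjusted p under 0.05 (8.63% and 5.21% of all genes) and 0 in each by DESeq2 and voom. For the combination against untreated it called 22, 17 higher and 5 lower (median 0.11), beside 12.1%, 6.60% and 5.52% of all genes. The marker medians were 0.85 (cardiomyocyte) and -0.73 (endothelial). Among other lists, atrial and conduction markers had a median of -6.03, with 1 of 6 called higher and 2 lower. Leukocyte markers had -0.71, with 0 of 8 called. Readers of cAMP gave 8 higher and 0 lower of 18, anchors 4 higher and 0 lower of 14, calcium targets 2 higher and 0 lower of 9, formation of cAMP 1 higher and 3 lower of 15, formation of cGMP 0 higher and 1 lower of 12, effectors of cGMP 1 higher and 0 lower of 6 and other phosphodiesterases 1 higher and 1 lower of 8. Prkar2a (1.23, 0.00832) and Akap7 (0.82, 0.0100) held in all 19 fits. The total rested on single libraries: it was 3 without untreated replicate 2, 5 without untreated replicate 3, 2 without EMPA + PFD replicate 2 and 3 without EMPA + PFD replicate 3. With only the compared libraries it was 0, and with the Eif2s3y term 4. Against control 9w, the combination had 39 of 82 called, 26 higher and 13 lower (median 0.15), beside 33.8%, 17.1% and 16.6% of all genes. Here the marker medians were 1.31 (cardiomyocyte) and -1.06 (endothelial). Among other lists, atrial and conduction markers had a median of -7.15, with 1 of 6 called higher and 4 lower. Blood markers had -2.39 (2 of 3 called, lower) and mesothelium markers -2.26 (1 of 2 called, lower). Readers of cAMP gave 11 higher and 1 lower of 18, with Hcn4 (3.72, 0.000532), Pkia (2.75, 0.000861) and Prkar2a (1.66, 0.000495), and anchors 5 higher and 1 lower of 14, with Akap6 (2.35, 0.000996), Akap1 (1.63, 0.00115), Akap7 (1.34, 0.000276) and Pde4dip (1.30, 0.00926). Formation of cAMP gave 4 higher and 5 lower of 15, with Adcy1 (2.29, 0.00860), Adrb1 (2.12, 0.00401), Adcy4 (-1.45, 0.000322) and Adcy5 (1.41, 0.00223). Formation of cGMP gave 0 higher and 2 lower of 12, with Npr1 (-1.60, 0.000630) and Nos3 (-1.09, 0.0112). Effectors of cGMP gave 1 higher and 2 lower of 6, with Prkg1 (2.00, 0.00132) and Vasp (-0.65, 0.000674), and calcium targets 4 higher and 0 lower of 9, with Ryr2 (1.34, 0.00780). The other phosphodiesterases gave 1 higher and 2 lower of 8: Pde7a (-1.84, 0.00806), Pde7b (1.33, 0.00771) and Pde8a (-0.82, 0.00108). The 5 genes Tnni3, Ryr2, Pln, Atp2a2 and Mybpc3 of the calcium targets are also cardiomyocyte markers here, and Nppa of the formation of cGMP and Hcn4 of the readers of cAMP are also atrial and conduction markers.

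Pde3a and Pde4d were both called higher in EMPA + PFD than untreated, so their gene starts are shown from RefSeq (build GRCr8), 250 bases before to 50 after the start. Windows were on hand for 8 of the 10 members, 17 in all, and not for Pde3b and Pde9a. Both strands were searched for the full cAMP response element, TGACGTCA, and for its core, TGACG, which the full element contains and which reads CGTCA on the other strand. The full element stood in 612 of 33469 gene start windows (1.83%) and in 0 of the 17. The core stood in 7097 windows (21.2%) and in 4 of the 17, a pair at Pde4a, at -11 and -18 from their starts, and a pair at Pde4d. The only Pde3a window, chr4:175904026-175904325 on the plus strand, did not hold these letters. Of 5 windows of Pde4d, all on the plus strand, chr2:42592499-42592798 held the core at -231 and -194, and chr2:42767367-42767666 held it at -19. Counts were per gene, so starts cannot be told apart in these data. A match is a run of letters and not a measured site. Capitals mark the core.
Pde3a: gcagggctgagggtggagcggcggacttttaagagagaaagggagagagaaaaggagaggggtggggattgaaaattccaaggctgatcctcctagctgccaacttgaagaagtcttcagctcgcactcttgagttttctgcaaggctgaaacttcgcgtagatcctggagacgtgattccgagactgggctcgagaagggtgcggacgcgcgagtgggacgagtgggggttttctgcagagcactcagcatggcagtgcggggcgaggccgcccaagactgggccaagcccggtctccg
Pde4d at 42592499: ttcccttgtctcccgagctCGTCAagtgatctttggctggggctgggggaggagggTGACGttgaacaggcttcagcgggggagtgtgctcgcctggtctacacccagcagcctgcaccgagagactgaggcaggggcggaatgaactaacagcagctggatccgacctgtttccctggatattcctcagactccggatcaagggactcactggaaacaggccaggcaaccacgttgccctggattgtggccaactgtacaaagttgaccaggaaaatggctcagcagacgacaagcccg
Pde4d at 42767367: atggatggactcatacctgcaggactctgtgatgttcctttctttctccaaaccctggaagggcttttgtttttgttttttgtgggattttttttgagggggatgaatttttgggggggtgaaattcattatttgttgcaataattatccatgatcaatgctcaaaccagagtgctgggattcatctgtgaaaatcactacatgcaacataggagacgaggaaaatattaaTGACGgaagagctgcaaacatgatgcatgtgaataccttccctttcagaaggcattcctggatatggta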

How the data were processed

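The authors deposited a table of raw read counts per gene for each of the 19 libraries. Per the study they were made with Trim Galore, FastQC, HISAT2 on rn6 and htseq-count; versions, annotation and strand setting were not given. Pde2a overlaps Mir139, Pde3b overlaps Cyp2r1 and Pde4d overlaps Mir582, also in the files, so reads could be shared.

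Counts were analysed in R 4.3.3 with edgeR 4.0.16: filterByExpr (12388 of 17455 genes), TMM factors, 1 model of 7 group means, and the quasi-likelihood F test, with Benjamini-Hochberg adjustment over all tested genes. A call is an adjusted p under 0.05; the study's 2-fold rule is counted beside it. CPM values are TMM-normalized, as mean ± SD; fold changes carry their standard error. The common biological coefficient of variation was 0.257 with 12 residual degrees of freedom. An exact permutation test of 3 against 3 libraries cannot go below 0.1, so none was run. A floor of 3 counts was 0.215 to 0.400 CPM, for counting error only. Correlations use log2 CPM with a prior count of 2.

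Named were all 10 members, up to 4 called genes of largest change per pathway list, the most abundant gene of each cell type list, 3 closest genes per member, and Eif2s3y and RT1-CE16; Myl4 was chosen after its values were seen. Members and lists were chosen with earlier results of these data known. Alternatives were other normalization (RLE, upper quartile), filters, DESeq2 1.42.0, limma 3.58.1 voom with quality weights, only the compared libraries, a replicate block, a term for absent Eif2s3y, each library left out and a prior count of 0.5 in correlations. Leaving out HFpEF replicate 1 and untreated replicate 2 together was chosen after seeing the data. Code was tested on simulated data.

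Replicate numbers did not pair libraries: over 52 same-numbered pairs, r of group-centered values ran from -0.53 to 0.49 (median -0.07), and 5 of 19 libraries were closest to one of their own number.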

Additional observations from a re-analysis of the deposited data

Results flagged for a closer look

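The HFpEF effect differed between weeks 9 and 5 for 4 phosphodiesterases, by a test of the difference itself in edgeR. The value is the log2 fold change of untreated against control 9w minus that of HFpEF against control 5w. It was 1.83 for Pde3a, 1.27 for Pde4a, -1.94 for Pde1c and -1.16 for Pde2a. Pde3a was called in each of the 19 fits that left out 1 library, from 1.58 to 2.02. Pde4a was lost without control 5w replicate 1 (1.01, adjusted p = 0.0538) or untreated replicate 1 (1.07, 0.0682). Pde1c was lost without control 5w replicate 3, HFpEF replicate 2, control 9w replicates 1 or 2, or untreated replicates 1 or 3, at adjusted p from 0.0570 to 0.0723. Pde2a was lost without those same libraries, control 5w replicate 2 or HFpEF replicate 3 (0.0520 to 0.0999). Of the 4, only Pde3a was called without untreated replicate 1, and 2 were without control 5w replicate 3, HFpEF replicate 2, control 9w replicates 1 or 2, or untreated replicate 3. With a term for absent Eif2s3y, Pde3a gave 1.66 (0.0120) and Pde4a 1.39 (0.0281), while Pde1c (-1.72, 0.0651) and Pde2a (-0.80, 0.0933) lost their calls. Pde2a was also lost with only the compared libraries (0.0906). In the same contrast the median was 1.62 for 11 cardiomyocyte markers and -1.02 for 9 endothelial markers. Among other lists, blood markers had -3.29 (2 of 3 called, lower) and mesothelium markers -4.48 (2 of 2 called, lower). Fibroblast markers had 1.35, with 0 of 8 called and 8 positive. The part of these markers in the members' differences was not tested. The untreated rats were 4 weeks older than the HFpEF rats and had been gavaged, and control 9w rats were of their age. Gavage, a longer or ended exposure to L-NAME and diet, and an effect of age on the response to them cannot be told apart.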

How the results depend on the processing

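No member's called log2 fold change changed sign in any of the alternatives. Over 891 member values under alternatives other than leaving out 1 library, 823 kept direction and side of the threshold, 16 lost their call, 25 gained one and 27 uncalled values changed sign; of 1710 with 1 library left out, these were 1600, 54, 16 and 40. Normalization moved the median of all genes by less than 0.1 in log2. The filter of 10 counts in every library could not cover Pde1c, whose lowest count was 9.

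The number of members called moved as follows, with every alternative that changed it; the cause was not tested. For HFpEF against control 5w (4) it was 2 with the 2-fold rule, 3 with the filter of 10 counts, 6 with voom and 1 with only the compared libraries. For control 9w against control 5w (5) it was 3 with the 2-fold rule, 6 with RLE, DESeq2 or the Eif2s3y term, 8 with voom, 4 with the replicate block and 7 without HFpEF replicate 1 and untreated replicate 2. Untreated against control 9w (0) gave 1 with DESeq2 and 1 with voom. EMPA + PFD against untreated (2) gave 3 with the upper quartile, the filter of 10 counts or the Eif2s3y term, 4 with DESeq2 or voom and 0 with only the compared libraries. Against control 9w (6) it gave 3 with the 2-fold rule, 5 with the upper quartile, either filter or only the compared libraries, and 7 with voom or the Eif2s3y term. The difference between weeks (4) gave 3 with the filter of 10 counts, the replicate block or only the compared libraries, and 2 with the Eif2s3y term. Of all 12388 genes, DESeq2 and voom called 3224 and 5021, 4784 and 8753, 824 and 5005, 2524 and 3716, 4645 and 6781, and 3203 and 5923 in that order. With 1 library left out, the counts ran from 2 to 4, 2 to 6, 0 to 1, 2 to 4, 2 to 7 and 1 to 4, and stayed at 0 for EMPA, PFD and their interaction.

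For the pathway lists, counts over 1.5 times higher or lower are given. HFpEF against control 5w (28) gave 43 with voom, 11 with only the compared libraries and 16 with the Eif2s3y term. Control 9w against control 5w (37) gave 24 with the 2-fold rule and 56 with voom. Untreated against control 9w (3) gave 1 with the 2-fold rule, 1 without the filter, 9 with DESeq2, 47 with voom, 1 with the replicate block, 0 with the Eif2s3y term and 15 without HFpEF replicate 1 and untreated replicate 2. EMPA + PFD against untreated (22) gave 11 with the 2-fold rule, 35 with voom, 0 with only the compared libraries, 4 with the Eif2s3y term and 5 without that pair of libraries. The difference between weeks (29) gave 50 with voom, and the interaction (0) gave 1 with DESeq2 and 2 with voom. With 1 library left out, the counts ran from 17 to 34, 25 to 38, 0 to 13, 2 to 28, 30 to 43 (against control 9w) and 19 to 40, and stayed at 0 for EMPA, PFD and the interaction. With the replicate block, Pde3b in control 9w against control 5w (-0.85, adjusted p = 0.0589) and Pde2a in the difference between weeks (-1.10, 0.0554) lost their calls.

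Adjusted p over all alternatives ran from 4.66e-06 to 0.0270 for Pde3a in HFpEF against control 5w, from 1.57e-05 to 0.0898 for Pde3a and from 1.10e-05 to 0.0873 for Pde4d in EMPA + PFD against untreated, and from 0.00144 to 0.596 for Pde4b in untreated against control 9w. EMPA and PFD had 2 libraries each; where 1 was left out, the other was taken to vary like the other groups.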

Other observations

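Other lists of cell type markers moved between libraries as well. The 6 atrial and conduction markers, with the natriuretic peptide gene Nppa most abundant, summed to 3332, 6179 and 4708 CPM in control 5w, 2090.5, 274 and 1971 in HFpEF, 5199, 188 and 23343 in control 9w, 51.2, 14877 and 493 untreated, 707 and 5185 in EMPA, 2988 and 69.2 in PFD and 105, 406 and 167 in EMPA + PFD. Untreated replicate 2 and control 9w replicate 3 were far above the rest of their groups. Smooth muscle and pericyte markers, led by Abcc9, summed to 1651, 1667 and 1579 CPM in control 5w, 2397, 1577 and 1713 in HFpEF, 1608, 1523 and 1448 in control 9w, 1918, 1800.2 and 2093 untreated, 1742 and 3699 in EMPA, 1496 and 1652 in PFD and 1632, 1475 and 1375 in EMPA + PFD. Blood markers, led by Hbb with Hba1 at 0 in some libraries, summed to 1661, 1021 and 1607 CPM in control 5w, 1656, 1313 and 3637 in HFpEF, 1440.4, 1728 and 1111 in control 9w, 219.8, 174 and 286 untreated, 2136 and 418 in EMPA, 670.4 and 812 in PFD and 137, 454 and 201 in EMPA + PFD. By group mean, untreated and EMPA + PFD were lowest.

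Mesothelium markers, led by Wt1 with Msln at 0 in some libraries, summed to 55.2, 27.4 and 38.6 CPM in control 5w, 60.1, 117 and 127 in HFpEF, 139, 194 and 105 in control 9w, 80.9, 97.3 and 110.0 untreated, 129 and 77.5 in EMPA, 130.4 and 94.6 in PFD and 64.6, 83.9 and 54.5 in EMPA + PFD. Adipocyte markers summed to 77.1, 64.2 and 74.4 CPM in control 5w, 144, 359.5 and 313 in HFpEF, 314, 412 and 186 in control 9w, 267, 241 and 272 untreated, 388 and 321 in EMPA, 327 and 274 in PFD and 178, 343 and 249 in EMPA + PFD. By group mean, both lists were lowest in control 5w. The mesothelium sum was mostly Wt1 (27.1 to 194 CPM over the libraries), and the adipocyte sum nearly all Lipe (64.1 to 411 CPM). Skeletal muscle markers, led by Mylpf, summed to 4.43, 12.6 and 11.1 CPM in control 5w, 12.3, 7.52 and 8.04 in HFpEF, 9.48, 7.50 and 8.57 in control 9w, 7.28, 9.91 and 8.01 untreated, 9.85 and 12.4 in EMPA, 4.60 and 7.51 in PFD and 6.03, 4.18 and 5.33 in EMPA + PFD.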
